A study of Homo sapiens with 2 samples.

Results

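The transcripts of 10 mitotic kinases were examined in LNCaP cells with reduced KDM4A. The genes are CDK1, PLK1, AURKA, AURKB, TTK, BUB1, BUB1B, NEK2, MELK and PBK, listed as kinases of mitotic entry, spindle checkpoint and chromosome segregation. Their values came from every probe set that the platform annotation assigns to exactly 1 gene. All 10 genes were measured, by 20 probe sets, among 17689 measured genes. The knockdown group, shKDM4A, was LNCaP cells infected with lentivirus carrying a short hairpin against KDM4A, and the control group was LNCaP cells infected with lentivirus from the pLKO.1 vector, which carries no hairpin. LNCaP is an established androgen-responsive human prostate carcinoma line. The virus of both groups was packaged in HEK293T cells, a human embryonic kidney line, and RNA was taken 3 days after infection. Each group was 1 array (Affymetrix Human Genome U133 Plus 2.0), and 1 hairpin construct was used, so none of the values below has a replicate check, no p-value could be had, and effects of the hairpin other than on KDM4A cannot be told apart from effects of KDM4A.

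Many mitotic kinases are made mainly late in the cell cycle, and some of them are destroyed as cells leave mitosis. CDK1, bound to cyclins A and B, triggers entry. PLK1 and AURKA act at the centrosomes and spindle poles, AURKB corrects wrong attachments at the centromere, and TTK, BUB1 and BUB1B hold back anaphase until every chromosome is attached. In growing cultures the transcripts of these genes follow the share of cells in G2 and mitosis. In bulk RNA, fewer cells in these phases and less RNA per cell cannot be told apart.

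The deposited values are on the log2 scale and centred on the mean of both arrays, so each probe set has equal values of opposite sign on the 2 arrays. The levels themselves are lost, and a transcript near the detection limit cannot be told from one that is abundant. A difference is the shKDM4A value minus the control value, a gene's difference is the mean over its probe sets, and the SD after ± describes how far that gene's probe sets lay from each other on these arrays and says nothing of the spread between cultures. "At least 2-fold lower" means a difference of -1 or below, a rule of size and not a test. KDM4A, the targeted gene, read -0.59 on the shKDM4A array and 0.59 on the control array, a difference of -1.18 ± 0.40 (SD, n = 2 probe sets).

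All 10 mitotic kinases lay below 0 (9 of 10 where AURKA was read from 208080_at alone), and 5 of them, PBK, MELK, NEK2, TTK and PLK1, were at least 2-fold lower in shKDM4A cells. Among all measured genes, 1.44% passed the 2-fold rule downwards and 1.16% upwards, and 46.3% lay below 0. None of the 10 kinases was 2-fold higher. Their median difference was -0.99, with quartiles of -2.26 and -0.73, while the median over all measured genes was 0.020 with quartiles of -0.14 and 0.18. The remaining kinases, AURKB, BUB1, AURKA, CDK1 and BUB1B, lay between -0.75 and -0.035.

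**Figure D1:**
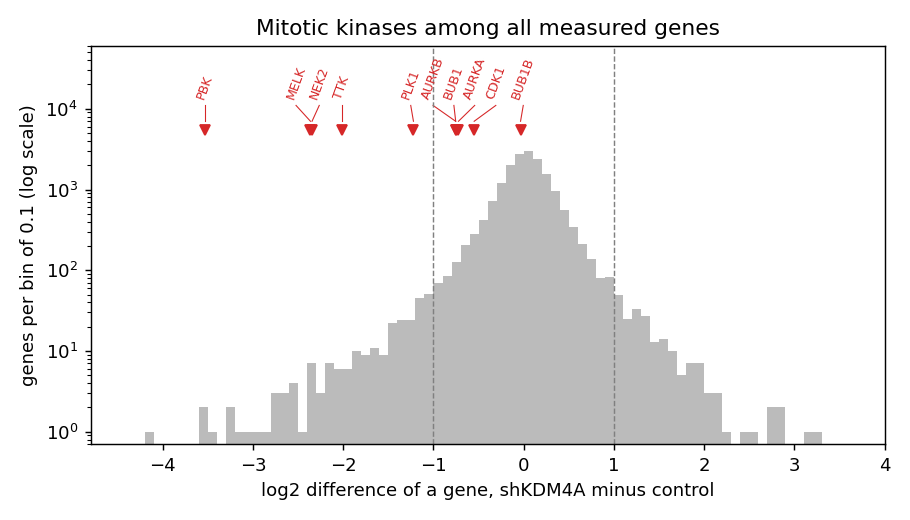
Distribution of the difference of each of 17689 genes, shKDM4A minus control (horizontal axis, log2; vertical axis, genes per bin on a log scale), with the 10 mitotic kinases marked by triangles and dashed lines at 2-fold. PBK, MELK, NEK2, TTK and PLK1 lie left of the 2-fold line, while BUB1B, at -0.035, lies in the centre of the distribution.

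Among the kinases of mitotic entry and the spindle poles, PLK1 had the larger difference and CDK1 the smaller. PLK1, the Polo-like kinase that promotes entry, centrosome maturation and spindle assembly, read -0.61 on the shKDM4A array and 0.61 on the control array. Its difference of -1.22 was 2.33-fold, the 152nd lowest of all measured genes, and rested on 1 probe set. In the RefSeq gene table PLK1 overlaps ERN2, an endoplasmic reticulum stress sensor, which lay at -0.19.

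CDK1, the catalytic partner of cyclins A and B, averaged -0.27 on the shKDM4A array and 0.27 on the control array. Its difference was -0.55 ± 0.33 (SD, n = 4 probe sets), 1.46-fold lower and short of the 2-fold rule. Of its probe sets, 3 were close together: 203213_at read -0.71, 203214_x_at -0.62 and 210559_s_at -0.79. The remaining one, 231534_at, for which the annotation gives no transcript accession, read -0.072.

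AURKA, the Aurora kinase of the centrosomes and spindle poles, averaged -0.36 on the shKDM4A array and 0.36 on the control array. Its difference was -0.72 ± 0.74 (SD, n = 3 probe sets), and the spread between probe sets was as large as the difference. The probe sets 204092_s_at and 208079_s_at read -0.98 and -1.30, and 208080_at read 0.11. Endings of _x_at and _s_at mark probe sets that may cross-match other transcripts. With those left out, 208080_at alone stood for AURKA and its difference was 0.11, so its direction depends on the probe sets used.

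Of the centromere and checkpoint kinases, TTK had the lowest gene mean, although the probe set 209642_at of BUB1, at -2.08, read slightly lower. TTK, also known as MPS1, starts checkpoint signalling at unattached kinetochores. It read -1.01 on the shKDM4A array and 1.01 on the control array, a difference of -2.02 or 4.05-fold on 1 probe set, the 43rd lowest of all measured genes.

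BUB1, which is recruited by TTK activity and marks the centromere for shugoshin, averaged -0.38 on the shKDM4A array and 0.38 on the control array. Its difference was -0.75 ± 0.94 (SD, n = 4 probe sets). The probe sets fell far apart: 209642_at read -2.08 (4.24-fold lower), 215509_s_at -0.73, 216275_at -0.17 and 216277_at -0.035. All 4 lay below 0, over a range of 2.05.

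BUB1B encodes BUBR1, a relative of BUB1 and part of the complex that inhibits the anaphase-promoting complex. It was the one kinase of the 10 that stood near 0. Its single probe set read -0.018 on the shKDM4A array and 0.018 on the control array, a difference of -0.035 (1.02-fold). Of all measured genes 40.4% lay at or below this value. BUB1B overlaps the readthrough gene BUB1B-PAK6 in the RefSeq table, and with the level lost by centring it was not tested whether this probe set detects its transcript.

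AURKB, the kinase of the chromosomal passenger complex, averaged -0.38 on the shKDM4A array and 0.38 on the control array. Its difference was -0.75 ± 0.54 (SD, n = 2 probe sets). The probe set 209464_at read -1.13 and 239219_at -0.38, so both were below 0 but just one passed 2-fold. AURKA and AURKB, close paralogs, thus had nearly the same mean difference, with a larger spread between probe sets within each gene than between the genes.

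The kinases with the largest differences were NEK2, MELK and PBK. NEK2, a NIMA-related kinase that separates the centrosomes before mitosis, averaged -1.17 on the shKDM4A array and 1.17 on the control array. Its difference was -2.35 ± 1.26 (SD, n = 2 probe sets), or 5.08-fold. The probe sets read -3.24 (204641_at) and -1.46 (211080_s_at), and both were at least 2-fold lower.

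MELK, a kinase of the AMPK-related family that is abundant in proliferating and embryonic cells, read -1.18 on the shKDM4A array and 1.18 on the control array. The difference of -2.36 was 5.14-fold, on 1 probe set, and was the 23rd lowest of all measured genes. PBK, also called TOPK, is a MAP kinase kinase-like enzyme that CDK1 phosphorylates in mitosis. It read -1.77 on the shKDM4A array and 1.77 on the control array, a difference of -3.54 or 11.6-fold on 1 probe set, and ranked 2nd lowest of 17689 genes. PBK overlaps ESCO2, an acetyltransferase of cohesin, in the RefSeq table, and ESCO2 lay at 0.090.

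**Figure D2:**
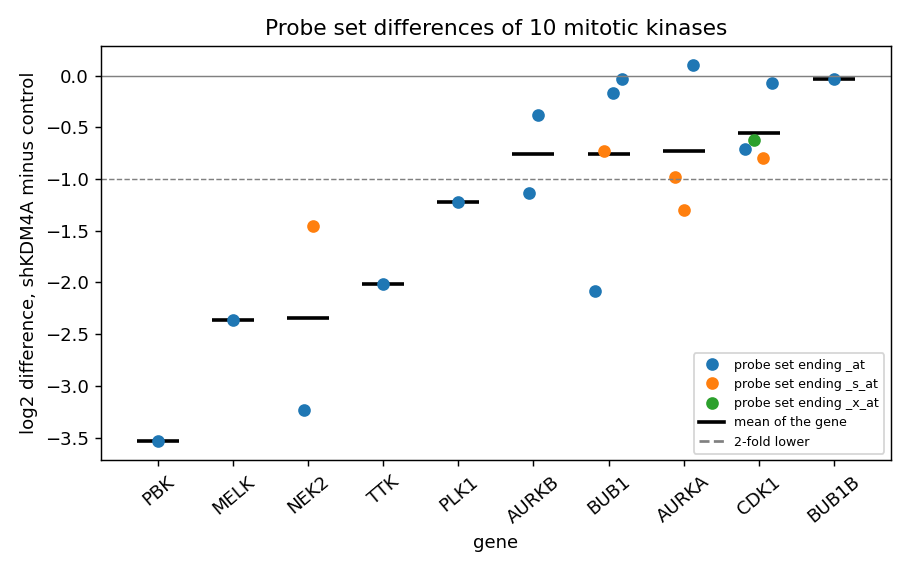
Difference of each probe set (points, coloured by the ending of its name) and the mean of each gene (bars) for the 10 mitotic kinases, ordered by the mean; the vertical axis is log2, shKDM4A minus control, and the dashed line marks 2-fold lower. Probe sets of NEK2, BUB1 and AURKA lie far apart, and AURKA has the only one above 0, at 0.11.

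Probe sets of the same kinase often disagreed. The pooled SD between probe sets was 0.77 for the 5 kinases with 2 or more probe sets, against 0.33 over all such genes. Of the 20 probe sets, 19 lay below 0 and 9 were at least 2-fold lower, where 2.39% of all probe sets with 1 gene were. The 5 that lay within 0.2 of 0 were 231534_at of CDK1, 208080_at of AURKA, 216275_at and 216277_at of BUB1 and 203755_at of BUB1B. Endings did not sort the values: 7 of 14 probe sets ending in _at alone and 2 of 5 ending in _s_at were at least 2-fold lower.

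The number of probe sets per gene moved with the size of the difference. The 5 kinases with 1 probe set had a median of -2.02, and 4 of them were at least 2-fold lower. The 5 with 2 or more had a median of -0.75, and NEK2 was the one past 2-fold. Over all measured genes the share at least 2-fold lower was 1.32% of genes with 1 probe set and 1.57% of genes with 2 or more. In the order PBK, MELK, NEK2, TTK, PLK1, AURKB, BUB1, AURKA, CDK1 and BUB1B, 8 of 9 gaps between neighbours were smaller than the spread expected from the pooled SD of the kinases, so those neighbours are not separated. The gap from PBK to MELK was 1.17 beside an expected spread of 1.09, which is hardly larger and rests on 1 probe set each. Kinases farther apart in the order were not compared in this way.

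Promoters of cell cycle genes often carry a CCAAT box, bound by NF-Y, and a cell cycle homology region (CHR, TTTGAA or TTCGAA), bound by the DREAM and MYB-MuvB complexes. RefSeq promoter windows of GRCh38.p14, 250 bases before to 50 bases after a start site, were at hand for 7 of the kinases (9 windows): CDK1, PLK1, AURKB, BUB1, BUB1B, NEK2 and MELK. Stretches of 100 bases before the start site are shown for 5 kinases, with differences from -2.35 to -0.035, that hold a CCAAT box or CHR there. MELK and AURKB, which also have windows, are not shown. The stretches run 5′ to 3′ along the gene, and capitals mark CCAAT (or ATTGG, its reverse) and TTTGAA.

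NEK2 (difference -2.35), chr1:211675622-211675721, minus strand: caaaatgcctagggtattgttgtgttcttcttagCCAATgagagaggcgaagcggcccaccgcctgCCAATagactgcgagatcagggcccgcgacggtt
PLK1 (difference -1.22), chr16:23678789-23678888, plus strand: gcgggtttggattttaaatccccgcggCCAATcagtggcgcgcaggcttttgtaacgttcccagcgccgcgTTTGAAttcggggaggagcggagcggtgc
BUB1 (difference -0.75), chr2:110678064-110678163, minus strand: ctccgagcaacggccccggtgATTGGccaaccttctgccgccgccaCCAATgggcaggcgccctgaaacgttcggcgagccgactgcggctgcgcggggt
CDK1 (difference -0.55), chr10:60778161-60778260, plus strand: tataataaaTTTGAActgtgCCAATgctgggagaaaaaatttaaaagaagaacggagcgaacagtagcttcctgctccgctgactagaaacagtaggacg
BUB1B (difference -0.035), chr15:40160969-40161068, plus strand: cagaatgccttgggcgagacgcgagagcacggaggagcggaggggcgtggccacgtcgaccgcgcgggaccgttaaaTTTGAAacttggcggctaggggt

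The stretches end 1 base before the start site, except that of CDK1, which ends 71 bases before the first of its start sites. It was set farther upstream than the others, where its matches lie 161 and 150 bases before that site. The second start site of CDK1, not shown, had CCAAT 78 and 46 bases before it. It also had TTTGAA 69 and 13 bases before it. With both strands searched, CCAAT was in 7 of the 9 kinase windows, which belong to NEK2, PLK1, BUB1, CDK1 and AURKB, and in 34.6% of all 35116 windows. A CHR was in 5 of the 9 kinase windows, which belong to PLK1, BUB1B, CDK1 and BUB1, and in 16.4% of all windows. CDK1 and AURKB have a pair of overlapping windows each, so the 9 are not independent. TTCGAA reads the same on both strands, and that of BUB1 starts at base 2 of the transcript. PLK1 and BUB1B both held TTTGAA, 29 and 23 bases before the start site, and had differences of -1.22 and -0.035. MELK, at -2.36, held none of the motifs searched. Of 4 E2F motifs (GGCGGGAA, TTTCGCGC, TTTGGCGC and TTTCCCGC; the first and last can overlap), only TTTCGCGC was found, in both windows of CDK1, while 5.03% of all windows held at least 1 of the 4. A match describes the letters of a window and shows no binding.

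The regulators and partners of these kinases were set beside them in lists, which were described by counts and medians. Beside the counts below, 1.44% of all measured genes were at least 2-fold lower, 1.16% at least 2-fold higher, and 46.3% lay below 0. Among 13 cyclins, activating phosphatases and subunits that work with CDK1, 3 were at least 2-fold lower and none higher, with a median of -0.32. CCNA2, cyclin A2, lay at -1.46 ± 0.26 and CCNB1, cyclin B1, at -1.42 ± 0.094 (SD, n = 2 probe sets each). CCNB2, cyclin B2, lay at -1.13 ± 1.81 over 3 probe sets, which ran from -3.23 to -0.065. The probe sets of CCNA2 and CCNB1 all lay below the lowest probe set of CDK1, at -0.79.

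Of 8 inhibitors of CDK1, 1 passed the 2-fold rule upwards and 1 downwards, with a median of 0.035. CDKN1A, the p21 inhibitor, read 0.97 on the shKDM4A array and -0.97 on the control array, a difference of 1.93 on 1 probe set. CDKN3, a phosphatase that removes the activating phosphate of CDKs, lay at -1.86 ± 0.22 over 2 probe sets. The probe set of CDKN1A is one that may cross-match, and with such probe sets left out no inhibitor was 2-fold higher.

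Activators and scaffolds of the Aurora and Polo kinases had a median of -0.90, with 5 of 12 at least 2-fold lower and none higher. CENPU, a kinetochore protein that docks PLK1, lay at -2.06 ± 1.64 over 3 probe sets. PRC1, which bundles microtubules of the central spindle, lay at -1.76 and TPX2, the activator of AURKA, at -1.24, each on 1 probe set. BIRC5, the survivin subunit that brings AURKB to the centromere, lay at -1.34 ± 0.72 over 4 probe sets. AJUBA, a LIM protein that can activate AURKA, lay at -1.04 ± 0.79 over 4 probe sets. With the smallest probe set difference of each gene this count was 2, and with _x_at and _s_at probe sets left out it was 3 of 8.

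Partners and targets of the spindle checkpoint kinases had 6 of 14 members at least 2-fold lower, none higher, and a median of -0.53. CDC20, the activator of the anaphase-promoting complex that the checkpoint holds back, lay at -2.80 on 1 probe set. ZWINT, a kinetochore protein that binds KNL1, lay at -1.55 on 1 probe set. SGO2, a shugoshin protecting centromeric cohesion, lay at -1.54 ± 0.40, ZWILCH, which helps bring checkpoint proteins to kinetochores, at -1.50 ± 0.42, and KNL1, the scaffold of BUB1 and BUB1B, at -1.32 ± 0.85 (SD, n = 2 probe sets each). BUB1B itself lay at -0.035, far from both its scaffold and CDC20, the protein it holds back.

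Other mitotic kinases outside the 10 lay mostly near 0. Of 14 measured, 2 were at least 2-fold lower and none higher, with a median of -0.11. NEK7, a NIMA-related kinase of the spindle, lay at -1.60 and PLK4, the kinase of centriole duplication, at -1.08, each on 1 probe set. HASPIN, at -0.80 on 1 probe set, was short of 2-fold but below the means of AURKB, BUB1, AURKA, CDK1 and BUB1B. With _x_at and _s_at probe sets left out, 1 of 10 was at least 2-fold lower. Of 18 phosphatases and phosphatase regulators that oppose mitotic kinases, none was 2-fold apart and the median was -0.035. Those farthest from 0 were CDCA2, which targets protein phosphatase 1 to chromatin, at -0.74 ± 0.58 over 2 probe sets, and PPP1CB, a catalytic subunit, at -0.65 ± 0.30 over 4.

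Relatives of the 10 by protein family, leaving out those in the lists above, showed no difference of 2-fold. Most of them have roles outside mitosis. Left out were, among others, NEK7 (-1.60) and PLK4 (-1.08), of the NIMA-related and Polo families. Of 36 measured relatives, 13 lay below 0 and the median was 0.058. In the CDK family (15 measured, median -0.026) the values farthest from 0 were those of CDK8, the Mediator kinase, at 0.87 ± 0.12, and CDK16 at -0.45 ± 0.26, over 3 probe sets each. Among the remaining Polo and NIMA-related kinases (8 measured, median 0.019) they were NEK8, a kinase of cilia, at 0.42 ± 0.078 over 2 probe sets, and PLK2 at -0.28 on 1. In the AMPK-related family of MELK (13 measured, median 0.12) they were MARK2, a polarity kinase, at 0.42 ± 0.091 over 2 probe sets, and NUAK1 at 0.42 on 1. The lowest of these relatives was CDK16, and 9 of the 10 mitotic kinases, all except BUB1B, lay below it. CDK1, at -0.55 ± 0.33, lay below CDK16 by less than the SD of either gene. With the smallest probe set difference of each gene, CDK1 (-0.072), BUB1 (-0.035) and AURKA (0.11) lay above CDK16 (-0.24).

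**Figure D3:**
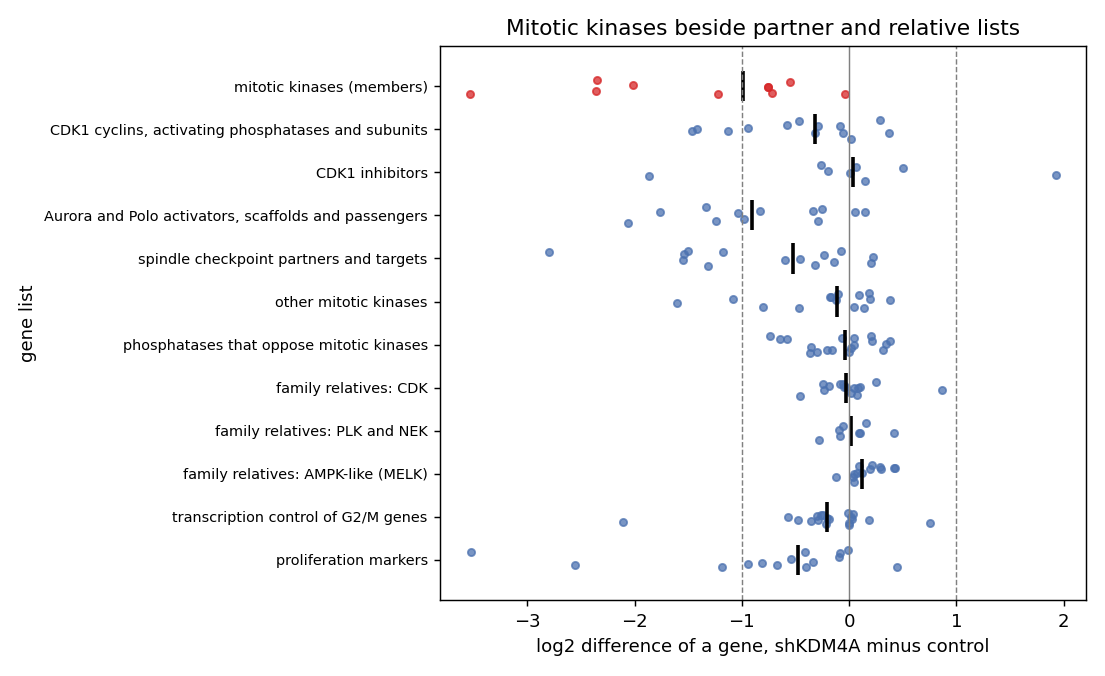
Difference of each gene (points; log2, shKDM4A minus control) in the list of 10 mitotic kinases (top row) and in 11 lists of partners, regulators and family relatives, with the median of each list as a black bar and dashed lines at 2-fold. The Aurora and Polo partners, with a median of -0.90, come closest to the kinases, at -0.99. With the smallest probe set difference of each gene (not shown), the checkpoint partners, at -0.46, lay below the Aurora and Polo partners, at -0.42. The medians of the family relatives run from -0.026 to 0.12.

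Regulators of G2 and mitosis transcription had 1 of 19 members at least 2-fold lower, none higher, and a median of -0.21. That gene was FOXM1, the forkhead factor that activates many of these kinases, at -2.11 on 1 probe set, which may cross-match, so that the count was 0 of 15 with such probe sets left out. Of 14 general proliferation markers, 13 lay below 0 and 3 were at least 2-fold lower, with a median of -0.48. TOP2A, the mitotic topoisomerase, lay at -3.53 ± 0.19, RRM2, the ribonucleotide reductase subunit, at -2.55 ± 0.80, and MCM5, of the replicative helicase, at -1.18 ± 1.01 (SD, n = 2 probe sets each). Lower but short of 2-fold were, among others, MCM6 (-0.94, 1 probe set), CCNE2 (-0.81 ± 0.82, n = 2 probe sets) and MKI67 (-0.67 ± 0.12, n = 4 probe sets). Markers near 0 were TYMS (-0.092 ± 0.13, n = 3 probe sets) and PCNA (-0.086, 1 probe set). CCND1 averaged -0.014 ± 0.92, but its 2 probe sets read -0.66 and 0.64. The marker above 0 was CCNE1, at 0.45 ± 0.030 over 2 probe sets. How far the lower kinase values follow a smaller share of dividing cells was not tested.

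Marker lists of the line and of other cells were set beside the kinases. Centring leaves no levels, so the identity of the line could not be checked by the presence of its markers. The median was 0.11 for 8 markers of luminal prostate cells, with FOXA1 at -1.16 ± 1.75 over 2 probe sets, of which 1 lay at 0.079. It was 0.0091 for 6 markers of the embryonic kidney packaging line (NEFL at 0.49 ± 0.22 over 3 probe sets, PAX2 at -0.34 ± 0.26 over 2) and -0.073 for 4 of basal epithelium (KRT14 at 0.41 on 1 probe set, ITGA6 at -0.22 ± 0.37 over 2). For 7 markers of stroma it was 0.060, but 0.45 over the 5 genes left without probe sets lacking an accession. The 3 that were higher by the 1.5-fold rule were ACTA2 (2.14 ± 2.42, n = 2 probe sets), the collagen gene COL1A1 (0.73 ± 0.76, n = 4 probe sets) and another, COL3A1 (0.63 ± 0.68, n = 3 probe sets). By that rule 760 of all 17689 measured genes were higher. Only ACTA2 passed the 2-fold rule upwards, and with the smallest probe set difference of each gene no stroma marker did. Of the other stroma markers, VIM lay at -0.35 and FAP at -0.29, on 1 probe set each. DCN lay at 0.044 ± 0.21 over 4 probe sets and COL1A2 at 0.060 ± 0.042 over 2. Both groups were cells of the LNCaP line, and how these marker values relate to the kinase values was not tested.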

How the data were processed

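RNA from 1 shKDM4A culture and 1 control culture was measured on arrays. The authors deposited log2-scale values for 44672 probe sets, made with RMA (robust multi-array averaging) per the submitters' processing notes. The values of the 2 arrays sum to 0 within 1e-06 in every row, which shows that they were centred. No source used here states the centring step or the log base, and base 2 was taken because RMA uses it. Every fold rests on that choice.

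Of the probe sets, 34880 had 1 gene in the platform annotation, and Entrez identifiers matched 34839 of them to RefSeq symbols (GRCh38.p14). Those with several genes (1619), those unnamed here (8131) and the 42 control probe sets were left out. Gene values are means over probe sets. Calculations were tested on simulated data. With 1 array per group, size rules stood in for tests, and precision is limited by the number of arrays.

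The 10 kinases and the gene lists were chosen with earlier results of these data known. Named genes were the 10 kinases, KDM4A and up to 5 genes per list at least 2-fold apart. In lists with none, the 2 farthest from 0 were named. HASPIN, stroma markers other than ACTA2, and the proliferation markers MCM6, CCNE2, MKI67, TYMS, PCNA, CCND1 and CCNE1 were added after their values were seen. With 2 arrays, likeness of pattern between genes could not be measured. Genes named for their overlap with a kinase gene were added after values were seen. Alternatives were medians over probe sets, the smallest or largest probe set difference, leaving out probe sets that end in _x_at or _s_at or lack an accession, subtracting the median, and 1.5-fold and 3-fold rules. Python 3.11.15, numpy 2.4.6, pandas 2.3.3 and matplotlib 3.10.9 were used.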

Additional observations from a re-analysis of the deposited data

How the results depend on the processing

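The count of kinases at least 2-fold lower stayed at 5, the same genes, with medians over probe sets, the smallest probe set difference, probe sets that can match several transcripts left out, the median subtracted, and probe sets without an accession left out. Of the 5, PBK, MELK, TTK and PLK1 have 1 probe set, which none of the settings on probe sets can change, so only NEK2 could have dropped out under those. The count was 8 under the 1.5-fold rule, adding AURKA, AURKB and BUB1, where 4.38% of all genes were lower. It was 4 under the 3-fold rule, without PLK1, where 0.458% of all genes were lower. With each gene's largest probe set difference, a setting chosen after seeing the data, it was 8, where 3.59% of all genes were lower. The median of the kinases ran from -1.66 to -0.80 over these settings, and KDM4A from -1.46 to -0.90. Over all measured genes, 774 were lower and 760 higher at 1.5-fold, 81 and 45 at 3-fold, 635 and 392 with the largest probe set difference, and 166 were lower with the smallest, against 255 and 205 in the values reported. The kinase differences that moved by more than the spread between probe sets (0.77) were AURKA (0.11 with the smallest difference and without _x_at and _s_at), NEK2 (from -3.24 to -1.46) and BUB1 (-2.08 with the largest); these settings differ only in the probe sets used. No paired analysis was possible because each group had 1 array. Signal over background cannot be read from centred values, so no dim probe set could be set aside.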
